A study of Mus musculus with 4 samples.

Results

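Des, Tnnt2, Tcap, Sh3bgr, Itih4 and 2210407C18Rik are 6 of the 18112 genes common to the 3 count files, and all 6 are listed in every file. They were chosen by their measured values: their levels in smooth muscle cells of the CNC AngII and SHF AngII libraries set them apart as genes higher in the second heart field (SHF) lineage. The difference between those 2 libraries is therefore given as a description and supports nothing. Single cells of the aorta of male Mef2c-mTmG mice were sorted as live singlets by lineage and captured on the 10x Chromium 3' v3 system. The comparison addressed is whether SHF-derived cells and cells of other lineages answer an infusion of angiotensin II (AngII), a vasoconstrictor hormone, with different transcription. The libraries used were SHF baseline (untreated), SHF AngII (3 days of infusion) and CNC AngII (3 days of infusion).

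The labels name 4 samples, of which CNC baseline was not analysed here. No CNC value without AngII stands beside the others, so whether a CNC level was low before infusion cannot be told apart from a fall with AngII. All groups share the strain Mef2c-mTmG. The strain name joins Mef2c to mTmG, a membrane reporter that changes colour in cells where Cre recombinase has acted and in their descendants. The labels spell out neither the Cre allele nor the abbreviation CNC, and they give neither the age nor the number of mice pooled. Each group has 1 library, so the differences rest on single libraries, without replicate error and without p-values. Intervals are 95% and cover counting error only.

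The files held 9412 barcodes and 92474476 UMIs (unique molecular identifiers, each a captured transcript) for SHF baseline, 11166 and 147854476 for SHF AngII, and 11098 and 150954701 for CNC AngII. Smooth muscle cells were gated on at least 5 UMIs of Myh11, the smooth muscle myosin heavy chain, and 0 of Pdgfra, a fibroblast receptor. Fibroblasts were gated on at least 1 UMI of Pdgfra and at most 2 of Myh11. Smooth muscle cells numbered 2259, 4649 and 6385 in SHF baseline, SHF AngII and CNC AngII, with median depths of 12441, 13336 and 13450 UMIs. Fibroblasts numbered 3939, 2640 and 842. The gated smooth muscle cells held all 6 of the smooth muscle markers at 10 CPM or more in each library, where CPM is a gene's UMIs per 1000000 UMIs of the same cells. Pairs of libraries shared 29 to 34 cell barcodes, and leaving those cells out changed no 2-fold call.

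Des encodes desmin, the intermediate filament that ties contractile units to each other in muscle cells, visceral and vascular smooth muscle included. Tnnt2 encodes cardiac troponin T, which anchors the troponin complex to the thin filament of heart muscle, and smooth muscle contracts without troponin. Tcap encodes telethonin, which caps titin at the Z-disc of striated muscle. Sh3bgr encodes a small acidic protein known from heart and skeletal muscle. Itih4 encodes a secreted protein of the inter-alpha-trypsin inhibitor heavy chain family, best known from the liver and plasma, and 2210407C18Rik has no established role that can be given here. A shared label of striated muscle thus fits 4 of the 6 genes by background knowledge. The size of the difference between the AngII libraries also varied, and Sh3bgr and Tcap were lower in CNC AngII by less than 2-fold. That contrast chose the members, so nothing is read from it.

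In the GENCODE M21 annotation (GRCm38), all 6 are protein-coding. Des lies at chr1:75360329-75368579 and Tnnt2 at chr1:135836354-135852260, both on the plus strand. 2210407C18Rik lies at chr11:58608204-58616075 on the minus strand and Tcap at chr11:98383811-98384953 on the plus strand. Itih4 lies at chr14:30886476-30902353 and Sh3bgr at chr16:96200450-96228935, both on the plus strand. Exons of Des overlap Gm15179 on the opposite strand, and no other member overlaps an exon of another gene. In the gated smooth muscle cells Gm15179 had 2 UMIs for SHF baseline, 1 for SHF AngII and 3 for CNC AngII. The sources used here do not say whether counting used strand, so reads of the pair cannot be told apart.

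The 250 bases before the start of the 4 members that were at least 2-fold lower in CNC AngII are shown to set their start regions side by side. They come from RefSeq promoter entries on GRCm38.p6, where 4 of the 6 genes had an entry, and each is written 5′ to 3′ along the gene. Capitals mark matches on either strand to CATTCC (the M-CAT element of muscle genes), TATAAA (the TATA box), GATA or CANNTG (the E-box), which did not overlap each other here. The RefSeq start of 2210407C18Rik lies inside the GENCODE gene. The Des window ends at 75360291, short of the GENCODE start at 75360329, and the last bases of the RefSeq entry of Des were not found in its transcripts. The windows are chr1:75360042-75360291 for Des, chr1:135836084-135836333 for Tnnt2, chr14:30886226-30886475 for Itih4 and chr11:58613493-58613742, minus strand, for 2210407C18Rik.
Des: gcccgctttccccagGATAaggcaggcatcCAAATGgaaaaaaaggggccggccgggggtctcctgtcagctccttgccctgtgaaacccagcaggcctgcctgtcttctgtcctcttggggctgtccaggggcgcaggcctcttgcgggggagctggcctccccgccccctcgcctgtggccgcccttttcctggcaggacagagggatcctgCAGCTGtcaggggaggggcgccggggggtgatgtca
Tnnt2: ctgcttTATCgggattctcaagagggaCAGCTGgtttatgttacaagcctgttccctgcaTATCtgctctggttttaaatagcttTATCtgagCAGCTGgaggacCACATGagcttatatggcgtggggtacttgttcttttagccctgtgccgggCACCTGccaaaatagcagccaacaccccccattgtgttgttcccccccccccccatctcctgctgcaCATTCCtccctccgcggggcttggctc
Itih4: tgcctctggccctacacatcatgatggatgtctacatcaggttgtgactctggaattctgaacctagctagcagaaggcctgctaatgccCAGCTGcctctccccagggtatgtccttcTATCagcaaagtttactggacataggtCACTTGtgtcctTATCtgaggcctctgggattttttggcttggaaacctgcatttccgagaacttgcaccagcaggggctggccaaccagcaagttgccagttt
2210407C18Rik: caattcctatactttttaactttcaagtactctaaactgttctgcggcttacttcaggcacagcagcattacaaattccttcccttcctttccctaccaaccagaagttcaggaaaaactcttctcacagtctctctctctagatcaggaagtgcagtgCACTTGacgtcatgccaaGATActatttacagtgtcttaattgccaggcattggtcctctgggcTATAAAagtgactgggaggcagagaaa
The Tnnt2 window alone of these 4 held CATTCC, 27 to 22 bases before the start, and it also held 4 E-boxes and 3 GATA matches. The 2210407C18Rik window alone held TATAAA, 27 to 22 bases before its start. Des had 2 E-boxes and 1 GATA match, Itih4 had 2 of each, and 2210407C18Rik had 1 of each. No exact match to a CArG box (CCWWWWWWGG) or a MEF2 site (YTAWWWWTAR), both motifs of muscle genes, was found in these windows, on either strand. Here W is A or T, Y is C or T, and R is A or G. Near matches were not searched. Of the 32851 promoter windows of the same length, 1.47% held a CArG box, 2.92% a MEF2 site, 12.6% CATTCC, 12.4% TATAAA, 53.6% GATA and 66.2% CANNTG. RefSeq gives Tnnt2 another start further into the gene, whose window held neither CATTCC nor TATAAA.

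Des stood at 520.4 CPM in smooth muscle cells of SHF baseline (counting interval 512 to 529) and 661 CPM in SHF AngII (655 to 667), with 88.5 CPM in CNC AngII (86.6 to 90.4). Both SHF libraries were high and the CNC library was low. A Des UMI was found in 49.8% of cells in SHF baseline and 50.8% in SHF AngII, with 17.7% in CNC AngII. The positive cells also held fewer copies in CNC AngII, with a mean of 13.7, 19.4 and 7.53 UMIs per positive cell in the same order. Cells with at least 10 Des UMIs were 24.97%, 29.5% and 4.81%. In CNC AngII the 10% of cells richest in Des held 93.4% of its UMIs, against 52.4% in SHF baseline and 55.9% in SHF AngII. Desmin RNA was thus found in a minority of CNC smooth muscle cells, while about as many SHF cells held it as lacked it.

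Tnnt2 stood at 743 CPM in SHF baseline (733 to 753) and 477 CPM in SHF AngII (472 to 482), with 53.3 CPM in CNC AngII (51.9 to 54.8). The share of cells with a UMI had the same order, at 69.3%, 57.9% and 22.1%. Cells with at least 10 Tnnt2 UMIs were 27.7%, 19.1% and 1.68%, and the highest single cell of each library held 179, 221 and 210 UMIs. The highest CNC cell thus lay in the range of the highest SHF cells. The ratio of Tnnt2 to Des UMIs was 1.43 (1.40 to 1.46) in SHF baseline and 0.721 (0.711 to 0.732) in SHF AngII. It was 0.603 (0.582 to 0.624) in CNC AngII, where both genes were low. With a stricter cell filter (at least 1000 genes, at most 5% mitochondrial UMIs), which left 120 smooth muscle cells of SHF baseline, Tnnt2 stood at 1501 CPM there and at 381 CPM in SHF AngII.

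Tcap stood at 94.6 CPM in SHF baseline (91.1 to 98.2) and 122 CPM in SHF AngII (120 to 125), with 77.4 CPM in CNC AngII (75.6 to 79.2). Its share of cells with a UMI was close to equal in the 3 libraries, at 43.7%, 41.7% and 41.9%. Cells with at least 10 Tcap UMIs were 1.64% in SHF baseline and 4.75% in SHF AngII, with 1.43% in CNC AngII, so SHF AngII had more cells with many copies rather than more positive cells. Sh3bgr stood at 626 CPM (617 to 635), 481 CPM (476 to 486) and 423 CPM (419 to 427). It was found in 98.3%, 97.2% and 97.4% of smooth muscle cells, with a median of 7, 6 and 6 UMIs per cell. The richest 10% of cells held 22.8%, 24.2% and 22.9% of its UMIs. Of the 6 genes, Sh3bgr was the one spread most evenly over cells and the one that differed least between the AngII libraries.

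Itih4 stood at 189 CPM in SHF baseline (184 to 194) and 114 CPM in SHF AngII (111 to 116), with 34.99 CPM in CNC AngII (33.8 to 36.2). A UMI was found in 60.5%, 48.8% and 28.0% of cells. It was highest in SHF baseline and lowest in CNC AngII, the order also seen for Tnnt2. With the stricter cell filter Itih4 stood at 107 CPM in SHF baseline and 75.7 CPM in SHF AngII, and its share of cells was 40% and 41.5%, so the order of the shares in the SHF libraries depends on the filter. 2210407C18Rik stood at 102 CPM (98.9 to 106), 212 CPM (208 to 215) and 101 CPM (98.9 to 103), in 42.3%, 56.3% and 43.4% of cells. SHF baseline and CNC AngII did not differ beyond counting error for this gene, and SHF AngII alone was high. The 6 genes therefore followed several patterns, and a low CNC value beside 2 high SHF values was that of Des, Tnnt2 and Itih4.

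**Figure D1:**
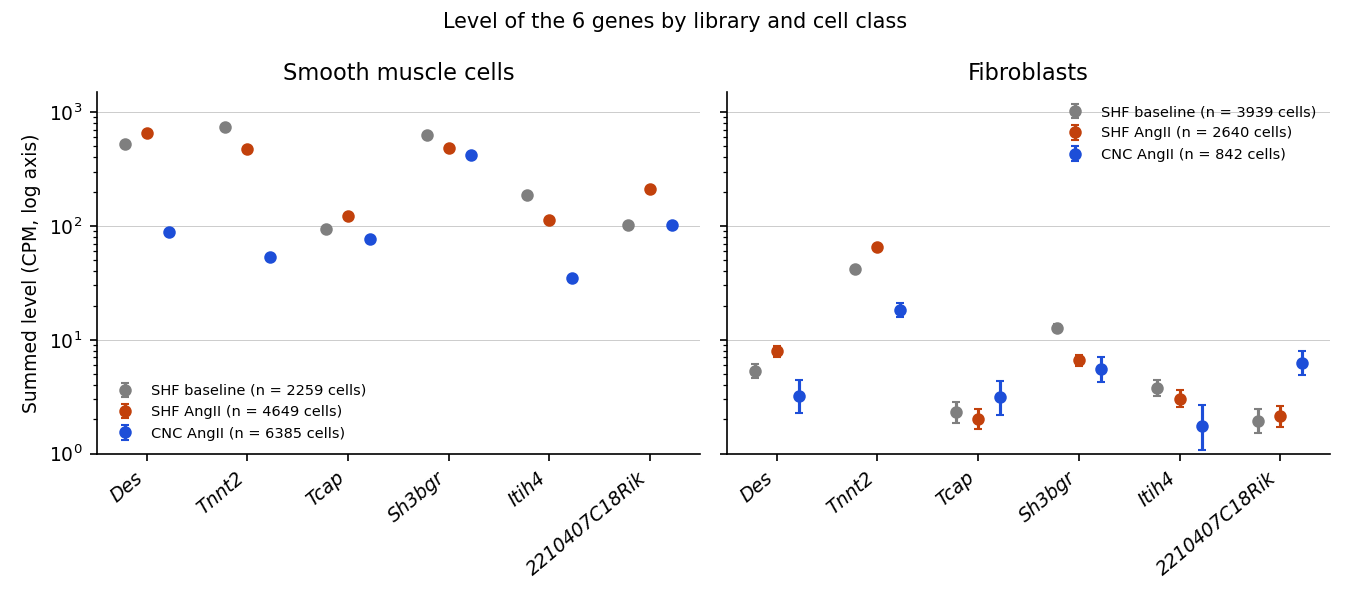
Summed level (CPM, log axis) of each gene in smooth muscle cells (left) and fibroblasts (right) of the 3 libraries; points are library values and bars are 95% Poisson intervals of the counts. Des, Tnnt2 and Itih4 are lowest in CNC AngII smooth muscle (88.5, 53.3 and 34.99 CPM), while Sh3bgr stays between 423 and 626 CPM.

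These shares were also read at 1 depth. Each cell was thinned to 5000 UMIs, which left out 45, 59 and 82 shallower smooth muscle cells. The thinned share with a Des UMI was 44.0% in SHF baseline and 44.6% in SHF AngII, with 12.6% in CNC AngII. The thinned share with a Tnnt2 UMI was 57.6%, 44.5% and 13.2%. The thinned shares were 27.0%, 27.1% and 24.5% for Tcap, 92.3%, 86.6% and 84.7% for Sh3bgr, 41.2%, 30.5% and 14.6% for Itih4, and 27.6%, 40.3% and 27.9% for 2210407C18Rik. Cells just inside the Myh11 gate (5 to 7 UMIs) held Tnnt2 at 671, 675 and 93.5 CPM, and cells just outside (3 to 4 UMIs) at 804, 593 and 93.4 CPM. Des was lower at this edge of the gate than over all gated cells: inside it stood at 164, 351 and 43.8 CPM, and outside at 115, 153 and 48.2 CPM.

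**Figure D2:**
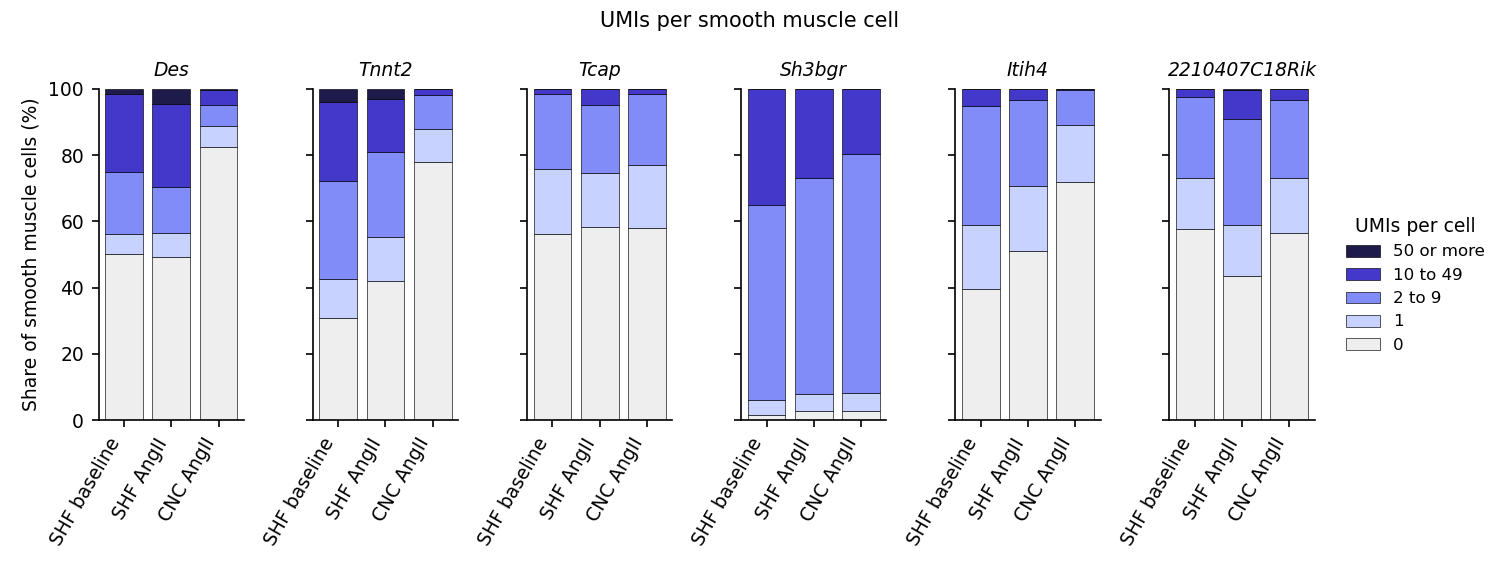
Share of smooth muscle cells (%) by the number of UMIs they hold of each gene, for SHF baseline, SHF AngII and CNC AngII. Cells with at least 10 Des UMIs are 24.97%, 29.5% and 4.81%, whereas Sh3bgr is found in 97.2% of cells or more.

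The AngII response of SHF cells was read as the comparison of SHF AngII with SHF baseline, given as log2((CPM + 1)/(CPM + 1)). AngII cannot be told apart from other differences between these single libraries. The gene 2210407C18Rik was higher (1.04, counting interval of the plain ratio 0.99 to 1.10), a 2.07-fold difference. Tcap (0.37) and Des (0.34) were higher by less than 2-fold. Itih4 (-0.73), Tnnt2 (-0.64) and Sh3bgr (-0.38) were lower by less than 2-fold. For Itih4, Tnnt2 and Tcap the direction changed with the depth of the cells, as given below. Of the 6 members, all of which passed the minimum mean of 10 CPM, 1 was at least 2-fold higher and 0 were lower. Over the 7001 genes tested, 2.86% were at least 2-fold higher and 3.53% at least 2-fold lower. The median of the members was -0.02, beside -0.10 for all genes tested. TMM, another scaling, shifts each of these values up by 0.20 without a change of sign among the 6, so the values are relative to total UMIs. With it, 68.1% of the genes past 2-fold were higher, against 44.7% with total UMIs. The stricter cell filter put Tnnt2 at -1.97, at least 2-fold lower, and Tcap at -0.011. It kept 120 of 2259 smooth muscle cells in SHF baseline, 1593 of 4649 in SHF AngII and 2805 of 6385 in CNC AngII. The libraries thus also differed in genes or mitochondrial share per cell. The part of that in the differences was not tested. The baseline file has its own gene list of 18760 names against 32285, and the part of this in the values was not tested.

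CNC AngII against SHF AngII is the contrast that chose the members, so its values are a description. Tnnt2 was 8.94-fold lower (log2 -3.14, interval -3.20 to -3.12) and Des 7.47-fold lower (-2.89, interval -2.93 to -2.87). Itih4 was 3.25-fold lower (-1.67) and 2210407C18Rik 2.10-fold lower (-1.06). Tcap (-0.65) and Sh3bgr (-0.18) were within 2-fold. The 4 genes past 2-fold are 4 of 6 members, where 0.352% of the 6823 genes tested were at least 2-fold lower, and nothing is read from this share because the rule used it. The median over all genes tested was 0.0049.

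Within each library, the members were compared between smooth muscle cells and fibroblasts. Des stood at 5.33 CPM in fibroblasts of SHF baseline and 7.91 CPM in SHF AngII, with 3.23 CPM in CNC AngII, against 520.4, 661 and 88.5 CPM in smooth muscle. All 6 genes were at least 2-fold higher in smooth muscle in each library, in a background of 7.58% of genes tested in SHF baseline and 9.61% in SHF AngII, with 9.26% in CNC AngII. Most members passed the minimum mean of 10 CPM only through their smooth muscle level, and smooth muscle levels of the AngII libraries chose them. This count was therefore largely fixed by the choice and nothing is read from it. The median log2 ratio of the members was 5.22, 5.67 and 4.02, beside -0.19, -0.11 and -0.11 for all genes tested. The smallest of the 18 ratios was that of Tnnt2 in CNC AngII (1.48). The sizes depended on the processing, with 1.08 to 1.70 for that ratio over the alternatives and 4.81 to 9.34 for Sh3bgr in SHF baseline. In fibroblasts Sh3bgr stood at 12.7, 6.59 and 5.501 CPM, and Tcap, Itih4 and 2210407C18Rik ranged from 1.75 to 6.29 CPM.

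Free RNA in droplets gives some UMIs to cells that do not express a gene. Macrophages of CNC AngII, 1440 cells gated on Ptprc and Tyrobp with a median of 11525.5 UMIs, held a Des UMI in 0.833% of cells and a Tnnt2 UMI in 0.903%. Sh3bgr was found in 3.40% of them, and Tcap, Itih4 and 2210407C18Rik in 0.764% to 1.11%. The shares in CNC smooth muscle, 17.7% for Des and 22.1% for Tnnt2, lay above that level. The macrophage gate held 7 and 12 cells in the SHF libraries, too few for the same check there.

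Tnnt2 was the member with the highest level in fibroblasts, at 41.5 CPM in SHF baseline (39.4 to 43.6) and 64.9 CPM in SHF AngII (62.6 to 67.3), with 18.4 CPM in CNC AngII (16.02 to 21.1). Fibroblasts held 7.78 (6.72 to 9.06), 8.21 (7.35 to 9.20) and 5.70 (4.01 to 8.32) Tnnt2 UMIs for each Des UMI, against 1.43, 0.721 and 0.603 in smooth muscle. The UMIs were concentrated: 93 of 2640 fibroblasts of SHF AngII (3.52%) had at least 10 Tnnt2 UMIs and held 62.0% of the total. In SHF baseline 33 cells (0.838%) held 44.8%, and in CNC AngII 3 cells (0.356%) held 20.4%.

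These Tnnt2-rich fibroblasts, picked by their Tnnt2 count, are described without a test. In SHF AngII they held Acta2, smooth muscle actin, at 4638 CPM against 1892 CPM in the other fibroblasts, and the matrix proteoglycan gene Dcn at 3527 against 5837 CPM. In SHF baseline Acta2 stood at 2137 against 564 CPM and Dcn at 9786 against 15603 CPM. The fibroblast marker Tcf21 stood at 141 against 135 CPM in SHF AngII and 200 against 237 CPM in SHF baseline. In the 3 such cells of CNC AngII, Dcn went the other way, at 7334 against 4653 CPM. Myh11, which the gate limits by construction, stood at 17.9 against 8.17 CPM in SHF AngII and 26.6 against 5.35 CPM in SHF baseline. Des stood at 35.9 against 6.90 CPM in SHF AngII and 8.18 against 5.29 CPM in SHF baseline. Sh3bgr stood at 6.41 against 6.60 CPM in SHF AngII and 24.5 against 12.6 CPM in SHF baseline. Mesothelial genes Wt1, Upk3b and Msln were at 0 in the 93 cells of SHF AngII and in the 33 of SHF baseline. The other fibroblasts held them at 2.49, 4.29 and 6.81 CPM in SHF AngII and at 1.26, 0.29 and 0.16 CPM in SHF baseline. At the latter levels 33 cells would hold few UMIs, so nothing is read from the zeros of SHF baseline. The cardiac factor Gata4 stood at 5.77 against 2.98 CPM in SHF AngII and 18.4 against 11.5 CPM in SHF baseline. Krt19 was not read in these cells, and their identity was not tested.

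Whether the members mark the same cells was read from the number of smooth muscle cells holding a pair, set against the number expected from the separate shares within 5 bins of depth. Des and Tnnt2 were found together in 852 cells of SHF baseline (37.7%), 1543 of SHF AngII (33.2%), with 266 of CNC AngII (4.17%), which is 1.08, 1.13 and 1.07 times the expected number. Des without Tnnt2 made up 12.1%, 17.6% and 13.5% of cells, and Tnnt2 without Des 31.6%, 24.7% and 17.9%. In CNC AngII 64.5% of cells held neither, against 18.6% and 24.5% in the SHF libraries. In each library, cells with Des or Tnnt2 alone outnumbered cells with both. The share with both falls with the separate shares, so nothing is read from its difference between libraries.

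With a cell counted as positive at 10 UMIs or more, a setting added after seeing the data, Des and Tnnt2 coincided in 238, 334 and 12 cells, or 1.41, 1.32 and 2.48 times the expected number. The CNC value rests on 12 cells. The Pearson correlation of the Des and Tnnt2 levels over cells was 0.22 in SHF baseline (n = 2259 cells) and 0.17 in SHF AngII (n = 4649), with 0.07 in CNC AngII (n = 6385). Cells of a library share its depth and preparation, so correlations over cells are descriptions.

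Over the 15 pairs of members, the median ratio of observed to expected was 1.02 in SHF baseline and 1.06 in SHF AngII, with 1.05 in CNC AngII. The ratios ranged from 0.932 (Des with 2210407C18Rik in CNC AngII) to 1.19 (Tcap with 2210407C18Rik in CNC AngII), and none reached 1.2. Pairs with Sh3bgr stayed near 1 since nearly every cell holds that gene, and they could not have reached 1.2. The highest ratio a pair can reach falls as the share of positive cells rises. Ratios of libraries with different shares are therefore not directly comparable. Tcap with Itih4 had the highest correlation over cells among the pairs (0.30 in SHF AngII), followed by Tnnt2 with Tcap (0.25 in the same library). All 6 genes were found together in 5.80% of smooth muscle cells of SHF baseline, 6.60% of SHF AngII, with 0.376% of CNC AngII. No expected share was computed for the 6 together. Such a share falls with the separate shares of the genes, so nothing is read from its difference between libraries.

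**Figure D3:**
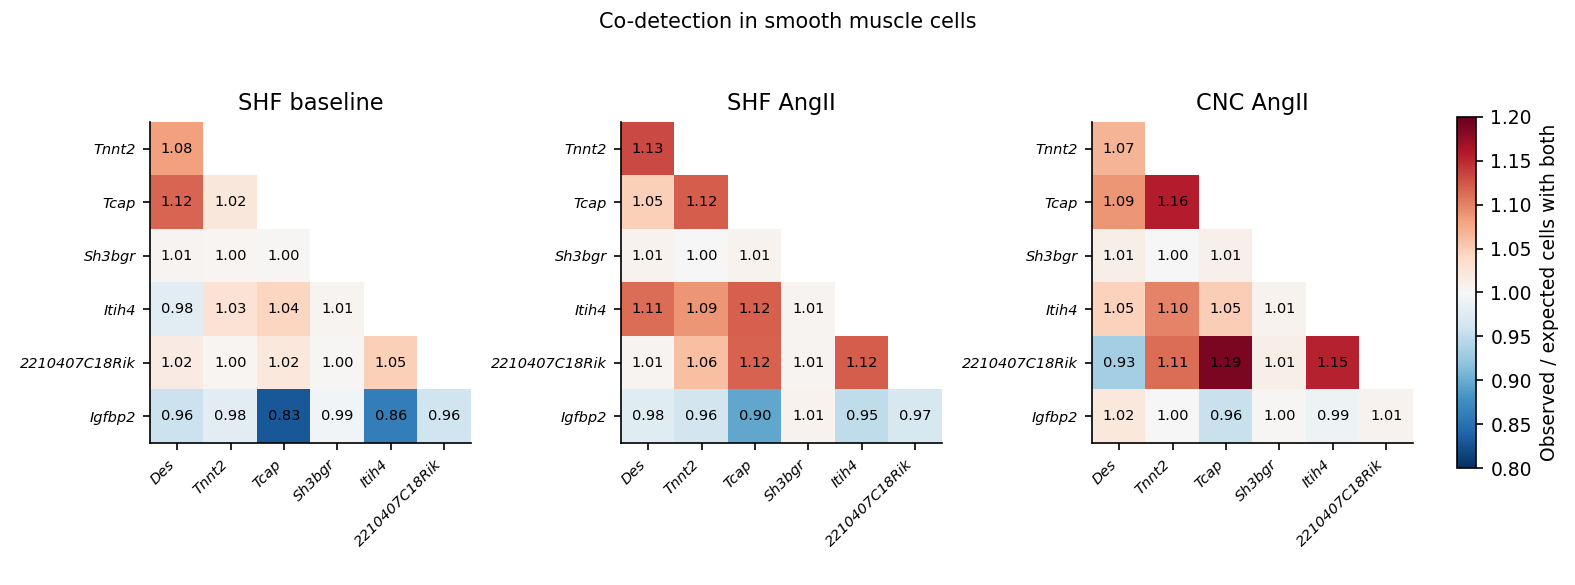
Number of smooth muscle cells holding both genes of a pair, divided by the number expected from the separate shares within 5 depth bins, in the 3 libraries; red is above 1 and blue below. Member pairs lie between 0.932 and 1.19, and the lowest values are those of Tcap and Itih4 with Igfbp2 in SHF baseline (0.83 and 0.86).

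Igfbp2, a secreted binding protein of insulin-like growth factors, stood at 263 CPM in SHF baseline and 1305 CPM in SHF AngII, with 1450 CPM in CNC AngII, in 23.7%, 67.5% and 81.0% of smooth muscle cells. Free Igfbp2 RNA was measurable, with a UMI in 12.4% of CNC macrophages. Members were found with Igfbp2 at 0.830 to 0.995 times the expected number in SHF baseline, 0.897 to 1.01 in SHF AngII and 0.956 to 1.02 in CNC AngII. Tcap was the member found least often with it, at 0.83, 0.90 and 0.96 times the expected number, with correlations over cells of -0.13, -0.28 and -0.19.

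Splitting the cells by Igfbp2 separated the members. In SHF AngII, cells without an Igfbp2 UMI held Tnnt2 at 826 CPM (812 to 839) and cells with it at 352 CPM (347 to 357). For Tcap the values were 268 and 70.2 CPM, for Itih4 214 and 77.7 CPM, and for 2210407C18Rik 277 and 188 CPM. Des, at 622 and 675 CPM, and Sh3bgr, at 479 and 482 CPM, were near equal in the 2 sets of cells. In SHF baseline the split of levels was in the same direction for Tnnt2 (804 and 578 CPM), Tcap (109.7 and 54.3 CPM) and Itih4 (214 and 121 CPM). The share of SHF baseline cells with a Tnnt2 UMI was 68.8% without and 70.7% with Igfbp2, so that share did not follow the Tnnt2 level. Depth differed with the split, with medians of 10419 UMIs without and 14707.5 UMIs with Igfbp2 in SHF AngII. After thinning to 5000 UMIs, a Tnnt2 UMI was found in 55.1% and 39.5% of those cells, and a Tcap UMI in 40.3% and 20.9%. In SHF baseline the thinned shares were 58.0% and 56.1% for Tnnt2 and 29.7% and 18.5% for Tcap. Thinning evens out sampling but not a level that itself moves with depth. In SHF AngII the share of cells with Igfbp2 went from 44.2% at 5000 to 10000 UMIs to 84.4% at 20000 UMIs or more. Levels of Tnnt2, Tcap and Itih4 fell there, as given below. The part of depth in the split was not tested.

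Among cells without an Igfbp2 UMI, Tnnt2 stood at 804 CPM in SHF baseline (793 to 817) and 826 CPM in SHF AngII, and Itih4 at 214 CPM in both libraries. Among cells with one, Tnnt2 stood at 578 and 352 CPM and Itih4 at 121 and 77.7 CPM, and the share of such cells was 23.7% and 67.5%. Tcap was higher in SHF AngII in both sets, at 268 against 109.7 CPM and at 70.2 against 54.3 CPM. Between the AngII libraries, Tcap differed in cells without Igfbp2 (268 CPM in SHF, 133 CPM in CNC) and lay close together in cells with it (70.2 and 67.1 CPM). Des and Tnnt2 were low in CNC AngII on both sides of the split, at 78.3 and 90.3 CPM for Des and 83.6 and 47.8 CPM for Tnnt2. Whether the split follows cell states or the sampling of Igfbp2 was not tested.

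**Figure D4:**
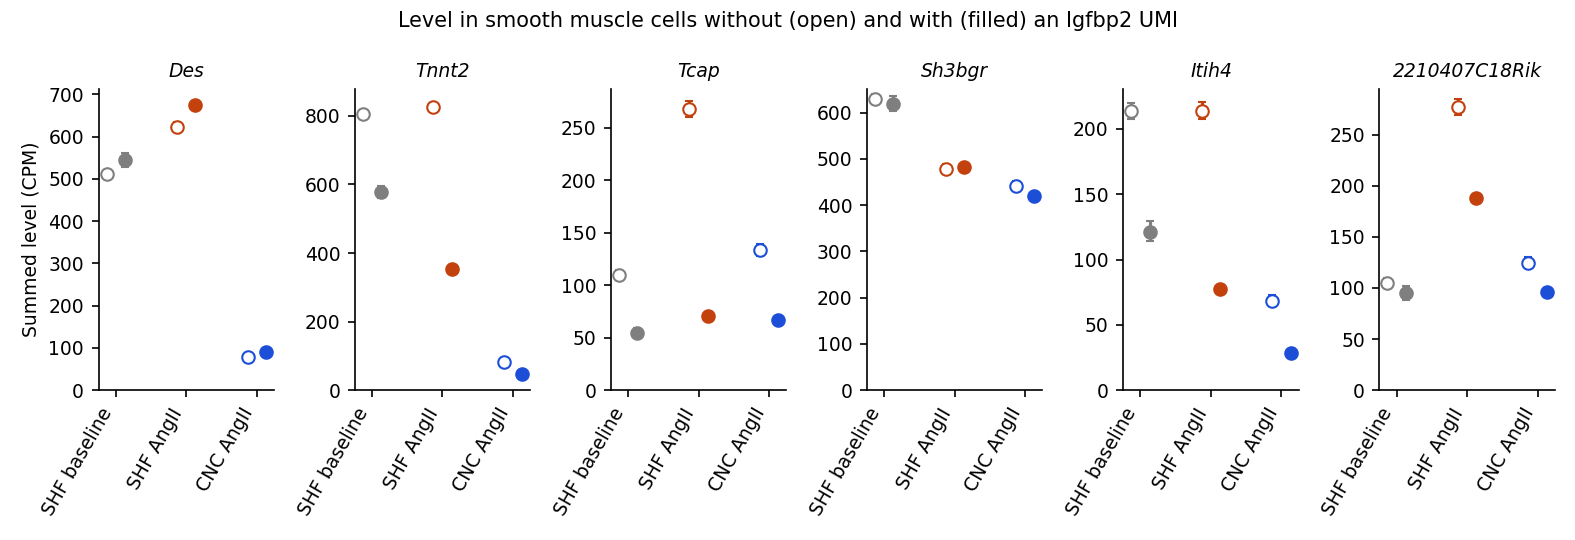
Summed level (CPM, linear axis from 0, one scale per gene) in smooth muscle cells without (open) and with (filled) an Igfbp2 UMI, by library; bars are 95% Poisson intervals of the counts. In SHF AngII Tnnt2, Tcap and Itih4 are lower with Igfbp2 (352 against 826, 70.2 against 268 and 77.7 against 214 CPM), and Des and Sh3bgr are near equal.

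The level of Tnnt2 also moved with depth. In SHF AngII it stood at 999 CPM in cells of 5000 to 10000 UMIs and at 225 CPM in cells of 20000 UMIs or more, while the share of positive cells went from 66.3% to 56.3%. In SHF baseline the same bins held 653 and 612 CPM, and in CNC AngII 120 and 31.5 CPM. For Des these bins held 633 and 592 CPM in SHF AngII, 351 and 528 CPM in SHF baseline, and 110.4 and 63.4 CPM in CNC AngII. At every depth from 5000 UMIs up, Des and Tnnt2 were higher in SHF AngII than in CNC AngII. That contrast chose them, so this is a description only.

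The genes most like each member were named by their Pearson correlation over the 4649 smooth muscle cells of SHF AngII, among 9389 genes with a UMI in at least 5% of them. For Des they were Actg2 (0.23), Ckb (0.19), Psd (0.18), Tnnt2 (0.17) and Synpo2 (0.17), with 0.22, 0.19, 0.23, 0.22 and 0.17 in SHF baseline and 0.12, 0.07, 0.06, 0.07 and 0.10 in CNC AngII. Actg2 encodes the enteric smooth muscle actin and Ckb brain-type creatine kinase. For Tnnt2 they included Gstm1 (0.42), Apoe (0.41), Fth1 (0.40) and Psd (0.36), with 0.07, 0.30, 0.05 and 0.34 in SHF baseline and 0.19, 0.15, 0.21 and 0.15 in CNC AngII. Apoe is a lipid carrier and Fth1 the heavy chain of the iron store ferritin. Gstm1 and Fth1 thus had their lowest correlation with Tnnt2 in SHF baseline, and Apoe and Psd in CNC AngII. Psd stood at 82.9, 26.4 and 2.68 CPM in SHF baseline, SHF AngII and CNC AngII.

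Other neighbours were found for the remaining members, listed outside the naming rule and chosen after their values were seen. Sh3bgr followed Myl9 (0.42), Tpm2 (0.41) and Dstn (0.41), genes of the contractile and actin machinery, with 0.30 to 0.32 in SHF baseline and 0.48 to 0.53 in CNC AngII. Itih4 followed Apoe (0.42) and Fth1 (0.39), with 0.27 and 0.13 in SHF baseline and 0.19 and 0.31 in CNC AngII. Tcap followed Dbp, a clock transcription factor (0.40), and Gstm1 (0.40), with 0.12 and 0.11 in SHF baseline and 0.33 and 0.25 in CNC AngII. Over the 6 levels of 3 libraries and 2 classes, the genes most like Tnnt2 on the log2(CPM + 1) scale were Pola2 (0.957), Pfdn4 (0.956), Coq9 (0.95), Unc119 (0.948) and St3gal5 (0.937), of 7476 genes. For Des, 107 of these genes exceeded 0.95, so 6 levels single out little.

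The thin and thick filament genes of striated muscle were mostly near the floor in smooth muscle cells, while several genes of other lists were not. In the Z-disc list Cryab stood at 529, 923 and 954 CPM, Nexn at 320, 379 and 367 CPM, and Pdlim3 at 304, 422 and 316 CPM. Jph2, of the calcium handling list, stood at 135, 128 and 134 CPM. Of 15 thin filament genes, 1 reached the minimum mean of 10 CPM, Tmod1, a cap of actin filament ends (34.1, 17.1 and 10.9 CPM). The other cardiac troponin genes, Tnnc1 and Tnni3, stood at 1.83, 1.41 and 0.78 CPM and at 1.52, 0.68 and 0.15 CPM. Tnnt3, the fast skeletal troponin T, stood at 2.57, 11.6 and 7.998 CPM (log2 1.82 for SHF AngII over SHF baseline). Actc1, cardiac actin, stood at 10.8, 4.95 and 1.55 CPM, the order also seen for Tnnt2. Of 20 thick filament and titin genes, 2 reached the minimum: Myom1, an M-band protein (129, 190.1 and 173 CPM), and Myl4, an atrial light chain (19.1, 31.2 and 38.7 CPM). Ttn, the partner of Tcap, stood at 2.67, 0.50 and 0.15 CPM. Of these genes, those outside the naming rule were chosen after their values were seen.

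The lists below are read against all genes tested: 2.86% were at least 2-fold higher and 3.53% lower in SHF AngII over SHF baseline, and 0.44% higher and 0.352% lower in CNC AngII over SHF AngII. A count of 0 in a short list is near that background, and nothing is read from it. Of 24 Z-disc, stretch and protein-quality genes, 12 were tested in SHF AngII over SHF baseline, with 2 at least 2-fold higher and 1 lower. Hspb7, a small heat shock protein of muscle (245 to 692 CPM, 1.49), and Ankrd1, a stretch-responsive protein (30.9 to 70.0 CPM, 1.15), were higher. Fbxo32, a ubiquitin ligase of muscle atrophy, was lower (113 to 46.1 CPM, -1.27). In CNC AngII over SHF AngII 11 were tested and 0 passed 2-fold. Of 11 calcium handling genes, 4 were tested in the AngII comparison, with Pln, the brake of the calcium pump, lower (29.1 to 11.3 CPM, -1.29). Pln stood at 3.68 CPM in CNC AngII, below the minimum mean for that comparison. Of 10 energy metabolism genes, 3 were tested in each comparison, and Ckm, muscle creatine kinase, was higher with AngII (6.09 to 24.7 CPM, 1.86). Among 10 intermediate filament and anchor genes, 9 were tested and 0 passed 2-fold in CNC AngII over SHF AngII. With AngII, Plec, a filament linker, was higher (67.1 to 144 CPM, 1.09) and Krt18, a keratin, lower (30.3 to 6.65 CPM, -2.03).

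All 15 smooth muscle contractile genes were tested, and 0 passed 2-fold in either comparison, with medians of -0.10 for AngII and -0.15 for CNC AngII over SHF AngII. Of 23 heart field and muscle transcription factors, 12 were tested in each comparison. With AngII, Srf, the factor that binds CArG boxes (42.2 to 16.8 CPM, -1.28), and Meis1, a homeobox factor (32.3 to 13.1 CPM, -1.24), were lower, and 0 of the 12 were higher. In CNC AngII over SHF AngII 0 of 12 passed 2-fold. Below the minimum mean, Gata4, a cardiac factor, stood at 12.3, 3.63 and 0.98 CPM and Isl1, a second heart field marker, at 8.87, 2.92 and 0.75 CPM, the latter chosen after its values were seen. Among relatives of Itih4 and Sh3bgr, Itih2 stood at 21.02, 13.8 and 19.6 CPM, Sh3bgrl at 694, 495 and 417 CPM, and Sh3bgrl3 at 122, 256 and 295 CPM (log2 1.07 with AngII).

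Markers of other cells were read in the same gated smooth muscle cells. The 8 cardiomyocyte markers summed to 18.5 CPM in SHF baseline and 23.8 CPM in SHF AngII, with 26.8 CPM in CNC AngII, of which Ryr2, a calcium release channel, made up 16.4, 22.7 and 26.5 CPM. Of the others, Myl2 was at 0 in SHF baseline and Myl3 at 0 in SHF AngII. No gated smooth muscle cell held 3 or more of the 8, so the members' values were the same without such cells. The 9 skeletal muscle markers summed to 11.8, 39.3 and 34.7 CPM, with Myh1 at 0 in each library and Myh2 and Myh4, which the baseline file does not list, at 0 in both AngII libraries. The 6 macrophage markers summed to 2.74, 1.15 and 81.0 CPM, highest in the library where members were low. Members stood at 2.85 CPM or less in CNC macrophages.

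The 6 fibroblast markers summed to 1235, 1438 and 1237 CPM, and none was at 0. Col1a1, the most abundant, stood at 709, 1105 and 1138 CPM, lowest in SHF baseline. Within the list, Dcn stood at 311, 174 and 20.3 CPM, Lum at 85.1, 75.3 and 8.83 CPM, and Tcf21 at 17.8, 13.7 and 0.43 CPM, each lowest in CNC AngII like Des and Tnnt2. Pi16 stood at 18.3, 11.9 and 5.34 CPM and Pdgfrb at 94.2, 59.4 and 64.2 CPM. Fibroblasts of SHF AngII themselves held Des at 7.91 CPM and Tnnt2 at 64.9 CPM, below the 661 and 477 CPM of its smooth muscle cells. The 5 pericyte markers summed to 301, 385 and 447 CPM, within which Rgs5 stood at 92.0, 60.8 and 27.7 CPM and Cspg4 in the other direction at 169.8, 293 and 370.4 CPM. Abcc9 was at 24.3, 17.7 and 33.3 CPM and Kcnj8 at 14.6, 13.1 and 15.2 CPM, and Higd1b stood at 0.53 CPM or less. The part of fibroblast or pericyte RNA in the members' levels was not tested.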

How the data were processed

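The deposited files hold raw UMI counts per gene and cell barcode, whole numbers with no normalisation. The submitters' processing notes name fastp, STAR 2.5, HTSeq 0.6.1 and the build mm10. The role and order of these tools are not given in the sources used here. Genes of the baseline file were paired with the AngII files by name, 518 of them by a RefSeq synonym with a single match. Another 13 repeated names were dropped.

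The cell filter asked for 500 genes or more and no more than 10% mitochondrial UMIs. Scrublet (scanpy 1.11.5), with the expected rate set to 8e-06 per cell captured, marked 205, 191 and 277 doublets (2.39%, 2.01% and 2.65%), which were left out. This left 8374, 9299 and 10194 cells. Raw counts of each gate were added up per library and scaled to 1000000 of the gate's own UMIs (CPM). A gene was tested for a 2-fold difference from a mean of 10 CPM. Intervals are exact Poisson for sums, Clopper-Pearson for shares and conditional binomial for ratios. UMIs counted from amplified libraries give counting error only. Ratio and co-detection functions were tested on simulated data. TMM factors came from edgeR 4.0.16.

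The members and gene lists were chosen with earlier results of these data known. Genes of the lists were named from 10 CPM in at least 1 library and a log2 ratio of 1 in size, at most the 10 largest of each comparison, with defining markers at 0. Genes alike were the 5 with the highest correlation. Of those, some are not reported here. Alternatives covered the cell filter, doublets, the Myh11 gate, cardiomyocyte-marker cells, the pseudocount, scaling, per-cell means, subtraction of free RNA, the gene minimum, thinning and depth bins. Shared barcodes and positivity from 10 UMIs were added after seeing the data.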

Additional observations from a re-analysis of the deposited data

Results flagged for a closer look

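For 3 genes the difference between libraries ran in opposite directions in smooth muscle cells and fibroblasts. These differences between the classes were not tested, since each group has 1 library. Tnnt2, for SHF AngII over SHF baseline, had a log2 ratio of -0.64 in smooth muscle and 0.63 in fibroblasts. Fibroblasts with fewer than 10 Tnnt2 UMIs differed little, with 23.2 CPM for SHF baseline and 25.6 CPM for SHF AngII. The fibroblast difference thus lay mostly in the 33 and 93 cells with at least 10, picked by Tnnt2 itself. For smooth muscle the direction changed with depth. Cells of 5000 to 10000 UMIs held 653 CPM (SHF baseline) and 999 CPM (SHF AngII). Those of 20000 UMIs or more held 612 and 225 CPM. Tcap, for CNC AngII over SHF AngII, had -0.65 in smooth muscle and 0.45 in fibroblasts, where it had 36 and 91 UMIs in all. In CNC AngII 12 fibroblasts held those 36 UMIs and 1 cell held 16 of them. Without the highest cell of each library, a setting chosen after seeing the data, Tcap stood at 1.75 CPM in CNC AngII and 1.67 CPM in SHF AngII fibroblasts, so the opposite direction of Tcap rests on 1 cell. 2210407C18Rik, in the same comparison, had -1.06 in smooth muscle and 1.22 in fibroblasts, with 72 and 96 UMIs there. Without the highest cell of each library it stood at 4.90 and 1.94 CPM in those fibroblasts. In fibroblasts Tcap and 2210407C18Rik stood below the minimum mean of 10 CPM.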

How the results depend on the processing

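Of 81 counts of members under the alternatives, 77 stayed within 1.5 times the reported count and 4 did not. Of 940 single values, 680 stayed within counting error, 259 moved and 1 reversed. Leaving out cardiomyocyte-marker cells removed no gated cell, so the values of that alternative were the same by construction. For SHF AngII over SHF baseline, the count of members past 2-fold was 0 with Myh11 of at least 20 and 0 with a pseudocount of 10, because 2210407C18Rik fell to 0.98 in each. The stricter cell filter, which left 120 smooth muscle cells of SHF baseline, put Tcap at -0.011, Tnnt2 at -1.97 and 2210407C18Rik at 0.87 in that comparison. Pairs at 1.2 times the expected number in SHF AngII were 2 with the stricter filter and 2 after thinning, against 0. For CNC AngII over SHF AngII, Des ranged from -3.04 to -2.76 and Tnnt2 from -3.22 to -2.94 over 13 alternatives. 2210407C18Rik was within 2-fold with Myh11 of at least 20 (-0.92), a pseudocount of 10 (-0.999), per-cell means (-0.95) and thinning (-0.94). The smooth muscle over fibroblast ratio of 2210407C18Rik in SHF baseline ranged from 3.23 to 6.73, and all 18 ratios stayed past 2-fold. Unless the alternative's construction shows it, the cause was not tested. With 1 library per group, differences between mice or preparations have no estimate. No paired analysis was possible because each group has 1 library and no test was made.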
